A study of Mus musculus with 29 samples.

Results

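The transcripts of 10 genes that glucocorticoids or fasting are known to induce were followed in the mouse aortic arch: Fkbp5, Tsc22d3, Sgk1, Zbtb16, Cebpd, Mt1, Mt2, Pdk4, Angptl4 and Txnip. The genes were taken as a list of symbols, and each symbol was matched to an Ensembl identifier in the deposited count table. They are 10 of the 56748 genes in that table, and all 10 were among the 12353 genes with enough counts to be tested. RNA came from Ercc1Δ/- mice, in which the DNA repair gene Ercc1 has 1 hypomorphic allele and 1 without function in all cells, and from WT (Ercc1 +/+) littermates. All mice were F1 hybrids of C57BL6J and FVB, were housed alone and were fed AIN93G pellets. Mice were fed ad libitum (AL) and taken at 6 weeks (5 WT, 5 Ercc1Δ/-) or 22 weeks (4 Ercc1Δ/- and 5 WT, of which the library with the fewest counts, 400410, was left out), or were placed on dietary restriction (DR) and taken at 22 weeks (5 WT, 5 Ercc1Δ/-). DR started at 7 weeks of age with a cut of 10% and stood at 30% from 9 weeks, and the food was given shortly before the dark phase. Each of the 28 libraries used is from 1 mouse, and each group holds both sexes.

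Glucocorticoid hormone, in mice corticosterone, enters cells and binds a receptor, Nr3c1, that is held ready by Hsp90 and its co-chaperones. The bound receptor moves to the nucleus and switches on target genes. Fkbp5, Tsc22d3, Sgk1, Zbtb16 and Cebpd are among the targets seen in many tissues, and Mt1 and Mt2 answer both to the hormone and to metal ions. Fasting raises corticosterone and also free fatty acids, which act through PPAR receptors on genes such as Pdk4 and Angptl4. In the aorta these genes are used by smooth muscle, endothelium, adventitial cells and the fat that surrounds the vessel.

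The labels held up on Ercc1, whose group means were 27.4 to 31.0 CPM (counts scaled to a common library size, with TMM factors) in the WT groups and 11.3 to 15.9 in the Ercc1Δ/- groups. The log2 difference was -1.41 at 6 weeks, -0.97 at 22 weeks AL and -1.01 on DR, and 1 WT library of 6 weeks, at 14.1 CPM, lay within the Ercc1Δ/- range. Gene counts per library ran from 921167 to 9616382. The tissue was arterial wall with fat: 10 smooth muscle markers summed to 17900 to 45300 CPM and 12 adipocyte markers to 1560 to 4810 CPM, whereas 10 markers of T cells, B cells and neutrophils never exceeded 12.6 CPM together. Smooth muscle markers were lower in Ercc1Δ/- arches (8 of 10 at 22 weeks AL, 9 of 10 on DR), and macrophage markers were higher (9 and 8 of the 11 tested from a list of 12, none of which was at 0 throughout a group). Counted in the same way, 761 of all 12353 tested genes were lower and 726 higher on AL, and 868 and 737 on DR. In bulk tissue, fewer cells of a type and less RNA per cell cannot be told apart. The labels name no batch.

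**Figure D1:**
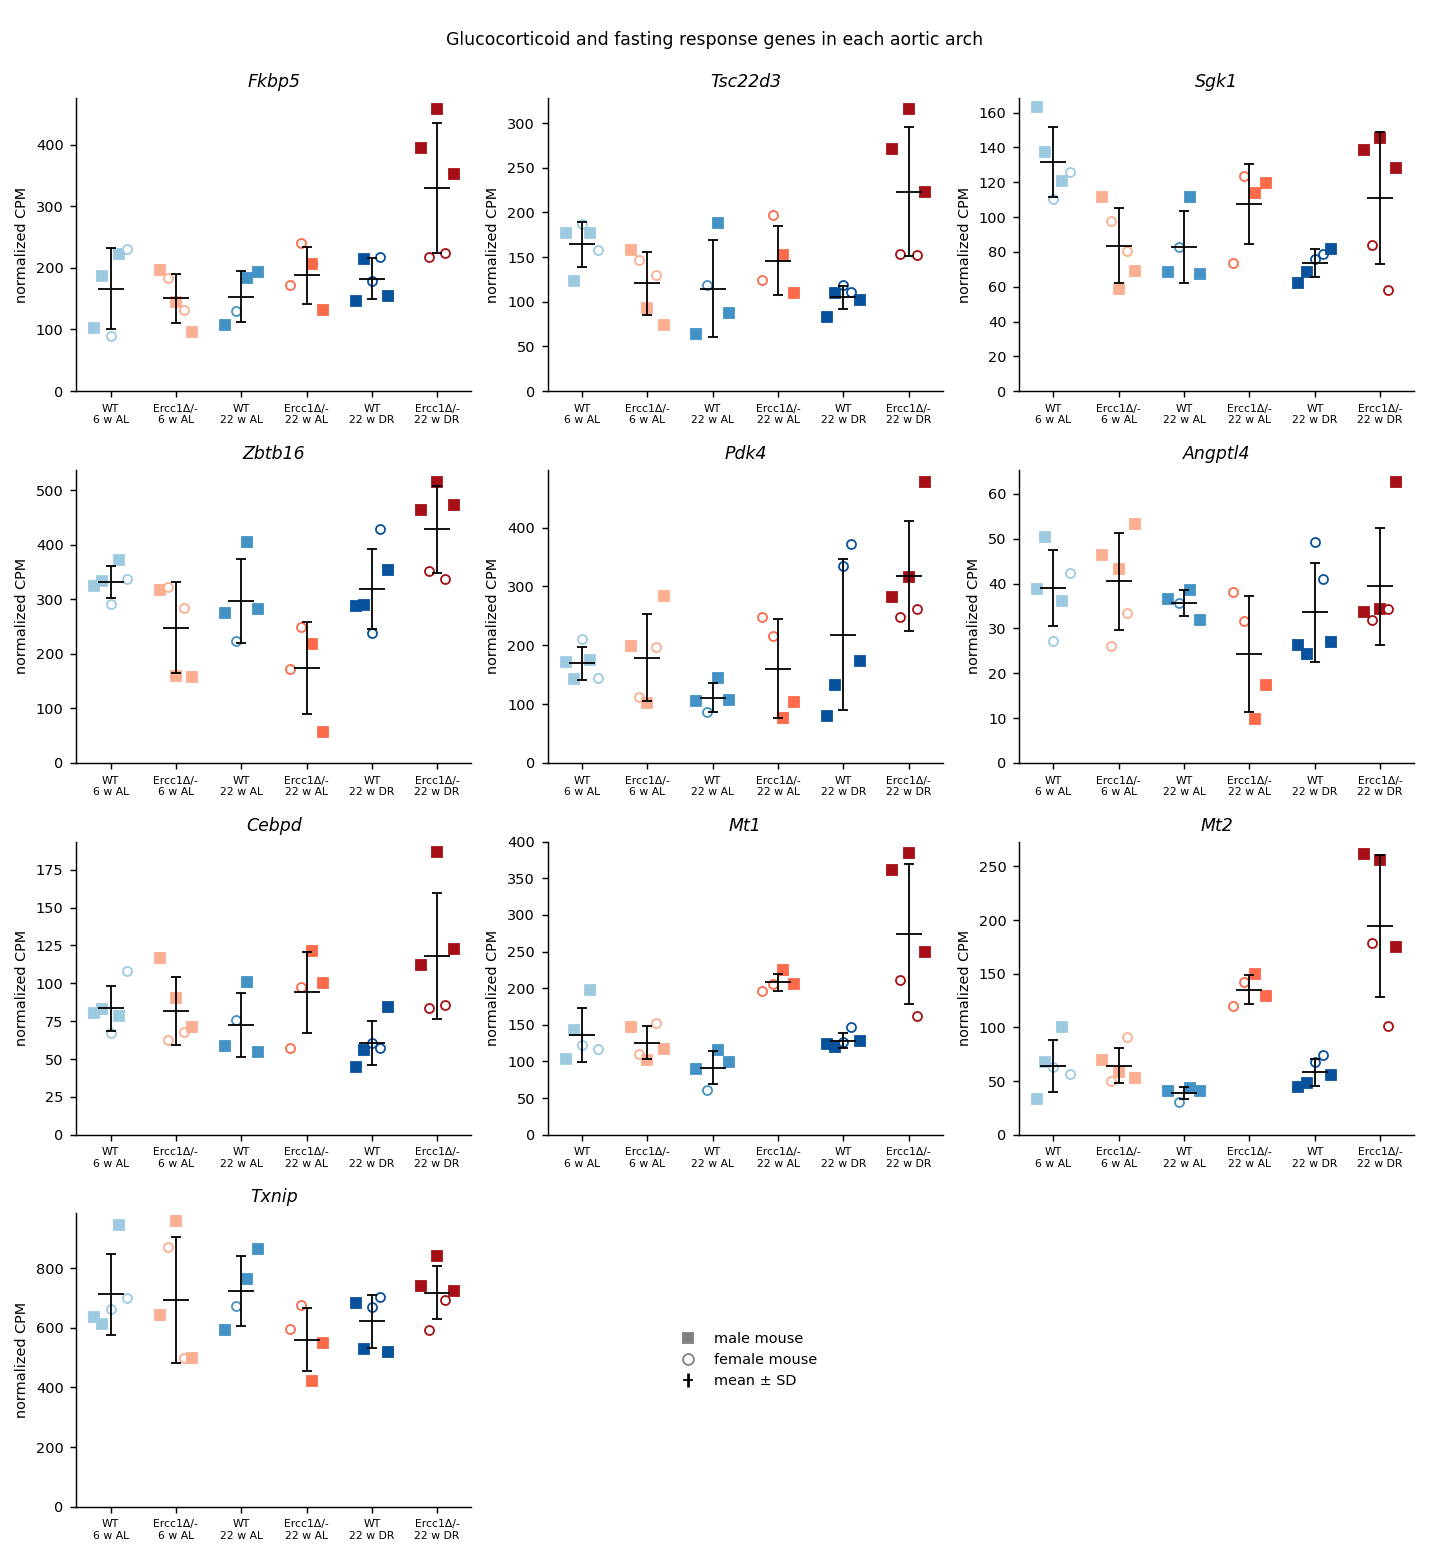
Normalized CPM (vertical axis, linear from 0, a scale of its own for each gene) of the 10 genes in each of the 28 aortic arches, by genotype, age in weeks (w) and diet on the horizontal axis. Filled squares are males, open circles females, and the cross with bars is the mean ± SD. Mt1 and Mt2 stood higher in all Ercc1Δ/- arches of 22 weeks than in the WT arches on the same diet, and the Ercc1Δ/- group on DR had the highest mean for 7 of the 10 genes, all but Sgk1, Angptl4 and Txnip.

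At 6 weeks none of the 10 genes passed the test between genotypes (1.70% of all tested genes did), with 1 at an unadjusted p under 0.05, Sgk1, which DESeq2 called. At 22 weeks AL both metallothionein genes, Mt1 and Mt2, were higher in Ercc1Δ/- arches, 2 of the 10 genes where 5.88% of all tested genes rose and 12.0% changed either way. On DR the pair was higher again and Fkbp5, Tsc22d3 and Cebpd were also higher, so that 5 of the 10 genes rose where 5.97% of tested genes rose and 13.0% changed. With DR against AL none of the 10 passed in WT arches (background 1.28%, 2 at an unadjusted p under 0.05, 0 by DESeq2). None passed in Ercc1Δ/- arches either (background 1.64%), where 5 had an unadjusted p under 0.05 and DESeq2 called 2, Fkbp5 and Zbtb16. From 6 to 22 weeks on AL, Mt1 and Mt2 rose in Ercc1Δ/- arches (2 of 10, background 2.11% higher and 4.69% either way) and no gene of the list passed in WT (0.235%, 3 at an unadjusted p under 0.05, 0 by DESeq2). To be called, a gene needed a change of at least 1.2-fold and, in edgeR's quasi-likelihood test on group and sex, an adjusted p (Benjamini-Hochberg, over all tested genes) of 0.05 or less. The list is small and some of its genes varied together, such as Mt1 and Mt2, so the counts are not counts of independent events. Endothelial markers were higher in the same DR comparison: 4 of 10 passed, Egfl7 (0.72), Pecam1 (0.69), Cdh5 (0.65) and Tie1 (0.57), all 10 were positive (median 0.54), and none was at 0 throughout a group. Their sums were 532 to 1070 CPM in WT and 1000 to 1670 in Ercc1Δ/- arches on DR. On AL at 22 weeks 1 of the 10 passed, and the median was -0.26. The part of the endothelial markers in the 5 calls on DR was not tested.

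**Figure D2:**
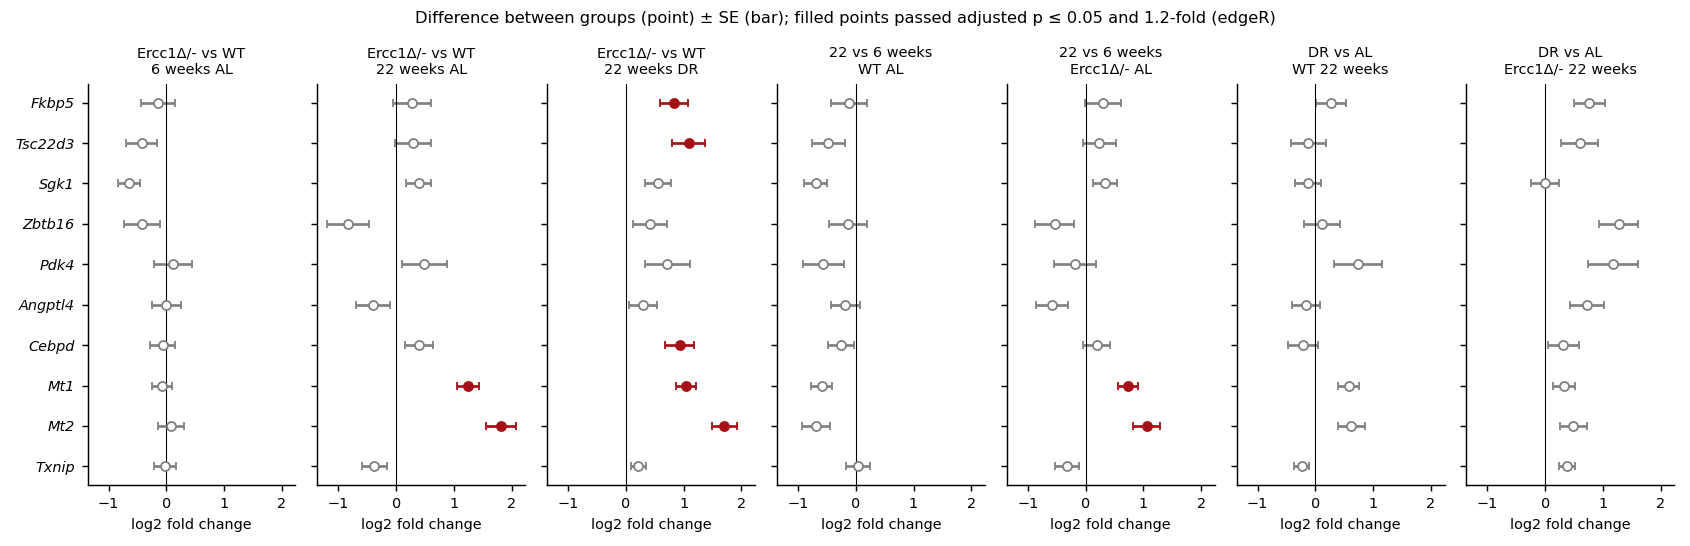
Log2 fold change (horizontal axis) ± SE of each of the 10 genes in 7 comparisons, with filled points where the edgeR test passed. Filled points appear for Mt1 and Mt2 in both genotype comparisons at 22 weeks and for age in Ercc1Δ/- arches, and for Fkbp5, Tsc22d3 and Cebpd in the genotype comparison on DR alone; the comparisons share groups, so their panels are not independent.

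Mt1 and Mt2 encode metallothioneins, small cysteine-rich proteins that bind zinc and copper. The genes are neighbours on chromosome 8, on the plus strand, with 5502 bases between them (GRCm39, Mt2 at chr8:94898819-94900207 and Mt1 at chr8:94905710-94906955). Their induction by metals runs through metal response elements, whose core reads TGCACNC or TGCGCNC. Stretches before the RefSeq start of both genes are shown because Mt2 and Mt1 had the largest genotype differences of the list on AL, and they carry that core in capitals. They are from RefSeq promoter entries (GRCm38.p6), matched exactly to GRCm39, and hold no base of an annotated exon. The Mt2 stretch lies inside the annotated gene, between exons of a longer transcript.
Mt1, chr8:94905467-94905709, plus strand: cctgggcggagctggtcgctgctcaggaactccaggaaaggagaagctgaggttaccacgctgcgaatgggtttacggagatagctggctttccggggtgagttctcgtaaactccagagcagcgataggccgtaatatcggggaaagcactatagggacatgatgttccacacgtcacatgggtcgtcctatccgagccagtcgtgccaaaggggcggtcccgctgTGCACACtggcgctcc
Mt2, chr8:94898996-94899131, plus strand: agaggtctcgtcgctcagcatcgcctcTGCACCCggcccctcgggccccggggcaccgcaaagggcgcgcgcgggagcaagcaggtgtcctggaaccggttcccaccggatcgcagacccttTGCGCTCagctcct
Searched on both strands over the 250 bases before each RefSeq start, the core occurred once for Mt1 and 3 times for Mt2, the third of these closer to the RefSeq start than the stretch printed. Bases after these starts were not searched, so the counts depend on the start used and hold for these windows alone. Of all 32851 promoter windows of that length, 21.4% held at least 1 such core and 1.26% held 3 or more. A RefSeq entry was found for 7 of the 10 genes (14 start sites), and 3 of these entries, those of Mt1, Mt2 and Txnip, held the metal core. The inner letters of the glucocorticoid response element, ACANNNTGT, which read the same on both strands and whose matches did not overlap a metal core, were in 4 of the 14 entries (Mt1, Txnip and 2 starts of Sgk1) and in 5.84% of all windows. Matches of this length are a description of the letters and not of bound sites.

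Mt2 stood at 30.5, 40.6, 41.0 and 43.6 CPM in the WT arches of 22 weeks AL and at 119.8, 129, 142 and 149.9 CPM in the Ercc1Δ/- arches. The lowest Ercc1Δ/- arch was above the highest WT arch. On DR the WT arches held 44.7, 48.2, 55.7, 67.8 and 74.8 CPM and the Ercc1Δ/- arches 101, 175, 178.5, 257 and 262 CPM, again without overlap. The log2 difference between genotypes was 1.82 (SE 0.25, adjusted p 2.1e-04) on AL and 1.70 (SE 0.22, adjusted p 1.37e-04) on DR. The change of the genotype difference with diet was -0.13 (SE 0.34, adjusted p 0.955).

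Mt1 stood at 61.4, 89.3, 99.9 and 116 CPM in WT and at 196, 206, 206 and 225 CPM in Ercc1Δ/- arches of 22 weeks AL. The 4 Ercc1Δ/- values lay close together (highest over lowest 1.15) and all above WT. On DR the values were 119, 123, 126, 128 and 147 CPM in WT and 162, 211, 250.0, 361 and 384 CPM in Ercc1Δ/- arches, so that the Ercc1Δ/- arches were higher and more spread. The difference was 1.25 on the log2 scale (SE 0.19, adjusted p 2.47e-04) on AL and 1.04 (SE 0.17, adjusted p 7.65e-04) on DR. Mt1 and Mt2 belonged to the 18.6% of tested genes whose AL groups did not overlap and to the 8.27% on DR. Both genes were called under all 19 alternative settings of the AL comparison and all 21 of the DR comparison.

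At 6 weeks the metallothionein genes did not separate the genotypes. Mt2 averaged 64.2 ± 24.1 CPM (SD, n = 5) in WT and 64.3 ± 16.5 (n = 5) in Ercc1Δ/- arches, and Mt1 137 ± 36.9 and 126 ± 22.8 CPM. From there to 22 weeks the means of the WT group were lower, 38.9 ± 5.79 CPM for Mt2 and 91.7 ± 23.0 for Mt1 (n = 4), with log2 changes of -0.68 (SE 0.24, adjusted p 0.383) and -0.59 (SE 0.18, adjusted p 0.226) that did not pass. In Ercc1Δ/- arches both rose, to 135 ± 13.4 and 208 ± 11.9 CPM, by 1.06 (SE 0.23, adjusted p 0.0128) and 0.73 (SE 0.17, adjusted p 0.0176) on the log2 scale. The pair was among the 6.78% of genes whose Ercc1Δ/- age groups did not overlap. The difference between the 2 age changes was tested directly and passed for Mt2 (1.74, SE 0.34, adjusted p 0.0179) and for Mt1 (1.32, SE 0.25, adjusted p 0.0127), 2 of the 10 genes where 0.372% of tested genes were higher and 0.842% passed either way. Without the Ercc1Δ/- arches 004 or 005 (22 weeks) or 008 (6 weeks) the rise of Mt1 with age had an adjusted p of 0.0572, 0.0617 and 0.0559, and without the WT arch 018 the interaction of Mt2 had 0.0803, in each case with the size nearly as before (0.73, 0.70, 0.71 and 1.62). Arch 018 was the 1 female used in the WT group of 22 weeks AL, and it had the lowest Mt1 and Mt2 there (61.4 and 30.5 CPM).

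WT arches on DR had more of both transcripts than WT arches on AL, in every library. The groups did not overlap for Mt1 or Mt2, which was so for 5.14% of tested genes, yet the log2 changes of 0.57 (SE 0.19, adjusted p 0.172) and 0.62 (SE 0.24, adjusted p 0.267) did not pass. In Ercc1Δ/- arches the changes with DR were 0.32 (SE 0.19, adjusted p 0.445) and 0.49 (SE 0.23, adjusted p 0.343). Without the Ercc1Δ/- DR female 022, which had the lowest Mt1 and Mt2 of its group, Mt2 rose by 0.70 with an adjusted p of 0.0455. In order of group mean both genes ran from Ercc1Δ/- DR and Ercc1Δ/- AL at 22 weeks down to WT AL at 22 weeks, and the 2 highest groups overlapped each other. Between genotypes macrophage markers ran the same way. Their sums were 297 to 434 CPM in WT and 652 to 1240 in Ercc1Δ/- arches of 22 weeks AL, and 198 to 357 and 463 to 1390 on DR. With DR in Ercc1Δ/- arches their median sum went from 943 to 513 CPM, whereas the changes of Mt1 and Mt2 were positive. Of the 11 tested markers 5 passed as lower there (122 of all 12353 tested genes), with 9 negative and 2 positive (median -0.68). Over all 28 arches, within groups, neither Mt1 nor Mt2 passed in a correlation with the macrophage sums. Centring within groups removes the difference between genotypes, so the correlation cannot speak to it. The part of macrophages in the Mt1 and Mt2 differences was not tested.

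Of other genes of metal and thioredoxin handling, 15 were tested from a list of 16. At 22 weeks AL 1 of the 15 was higher in Ercc1Δ/- arches (5.88% of all tested genes), Txnrd1, a thioredoxin reductase (0.42, SE 0.09, adjusted p 0.00421), and on DR 2 were higher (5.97% of all tested genes), Arrdc3, an arrestin relative of Txnip (1.40, SE 0.27, adjusted p 0.00288), and Mlxip, a glucose-sensing transcription factor (0.46, SE 0.14, adjusted p 0.0316). Txnrd1 also rose with age in Ercc1Δ/- arches (0.38, adjusted p 0.0124), and Mlxip with DR in Ercc1Δ/- arches (0.67, adjusted p 0.0288).

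Of the targets of the glucocorticoid receptor, Fkbp5 (chr17:28618058-28737521, minus strand) encodes a co-chaperone that lowers the receptor's affinity for the hormone and so feeds back on it. On DR it measured 146, 154, 178, 215 and 217 CPM in WT arches and 218, 224, 352, 395 and 457 CPM in Ercc1Δ/- arches. The ranges met almost exactly, at 217 and 218 CPM, without overlap: the 2 lowest Ercc1Δ/- arches were the females and the 3 highest the males. The difference was 0.84 on the log2 scale (SE 0.24, adjusted p 0.0338). On AL, the means were 154 ± 41.3 CPM in WT and 188 ± 46.4 in Ercc1Δ/- arches (n = 4 each), a difference of 0.27 (SE 0.33, adjusted p 0.652), and the groups overlapped widely. The change with DR was 0.27 (SE 0.25, adjusted p 0.726) in WT and 0.76 (SE 0.26, adjusted p 0.169) in Ercc1Δ/- arches.

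Tsc22d3 (chrX:139440091-139501408, minus strand) encodes GILZ, a leucine zipper protein through which glucocorticoids restrain inflammatory signalling. The WT arches on DR held 83.5, 102, 109, 110.4 and 119 CPM and the Ercc1Δ/- arches 152, 154, 223, 271 and 315 CPM. The groups did not overlap, and the females were again the 2 lowest of the Ercc1Δ/- arches. The log2 difference was 1.09 (SE 0.29, adjusted p 0.025). On AL the arches of 22 weeks ran from 64.4 to 189 CPM in WT and from 110.2 to 197 in Ercc1Δ/-, with a difference of 0.29 (SE 0.31, adjusted p 0.609).

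Cebpd (chr16:15705150-15708895, plus strand) encodes C/EBPδ, a leucine zipper transcription factor of stress and fat cell development. Its DR values were 44.6, 56.0, 57.0, 60.6 and 84.6 CPM in WT and 83.9, 85.4, 112, 123 and 187 CPM in Ercc1Δ/- arches. The highest WT arch lay just above the lowest Ercc1Δ/- arch. The difference was 0.94 (SE 0.25, adjusted p 0.0241), against 0.39 (SE 0.24, adjusted p 0.339) on AL. Cebpd overlaps the antisense gene Spidr, and since the strand setting of the counting is not given in the sources used here, reads of the pair may not be fully separated.

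Each of these 3 calls was lost without 1 of several single libraries. Fkbp5 no longer passed without the Ercc1Δ/- arches 006, 016 or 029 (adjusted p 0.0686, 0.0824 and 0.0635) or the WT arches 007, 017 or 028 (0.0793, 0.0517 and 0.087), and its log2 difference stayed between 0.71 and 0.96. Tsc22d3 no longer passed without Ercc1Δ/- 006 or 016 (0.0537 and 0.0639) or WT 007 or 028 (0.0628 and 0.0585), with differences of 0.94 to 1.22. Cebpd no longer passed without Ercc1Δ/- 016 (0.0627) or WT 007 or 010 (0.0518 and 0.053), with differences of 0.75 to 1.07. Arch 016 had the highest macrophage sum of all (1390 CPM). The libraries of the Ercc1Δ/- DR group were also the shallowest, 921167 to 2572523 counts against 2660422 to 6124471 in WT on DR. With every library thinned to 921167 counts, all 5 calls of the DR comparison held (Fkbp5 at an adjusted p of 0.0414 and Tsc22d3 at 0.0176).

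Sgk1 (chr10:21758083-21875802, plus strand), a kinase that raises sodium uptake and answers to both glucocorticoids and mineralocorticoids, followed another course. In WT arches of 6 weeks it measured 111, 121, 126, 137 and 163 CPM and in Ercc1Δ/- arches 58.6, 68.8, 80.8, 98.0 and 112 CPM. Only the highest Ercc1Δ/- arch reached the WT range, and the difference of -0.64 (SE 0.19) had an adjusted p of 0.115. DESeq2 called this gene (adjusted p 0.0281). At 22 weeks the direction was the other one, 0.39 on AL (SE 0.21, adjusted p 0.267) and 0.55 on DR (SE 0.22, adjusted p 0.124, DESeq2 0.0434), and the change of the genotype difference with age was 1.03 (SE 0.29, adjusted p 0.125, DESeq2 0.0251). Without the WT arch 020 the edgeR value of that change was 1.19 (adjusted p 0.0471), and without the Ercc1Δ/- arch 022 the DR difference was 0.74 (adjusted p 0.0151).

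Zbtb16 (chr9:48563141-48748664, minus strand) encodes PLZF, a zinc finger transcription factor. At 22 weeks the Ercc1Δ/- arches on AL held 57.1, 172, 218 and 249 CPM and those on DR 337, 353, 464, 473 and 515 CPM. All arches on DR were above all on AL, as for 5.02% of tested genes, and the mean went from 174 ± 84.1 to 428 ± 78.9 CPM. The log2 change was 1.27 (SE 0.34) with an adjusted p of 0.0798 in edgeR, whereas DESeq2 gave 0.0085 and called it. In WT the means were 297 ± 77.1 CPM on AL and 319.6 ± 73.3 on DR, a change of 0.12 (SE 0.32, adjusted p 0.929). The difference between the 2 diet changes, 1.16 (SE 0.46, adjusted p 0.509), did not pass, nor did any other of the 10 genes (background 0.0971%), with 3 of them at an unadjusted p under 0.05 and 0 called by DESeq2.

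**Figure D3:**
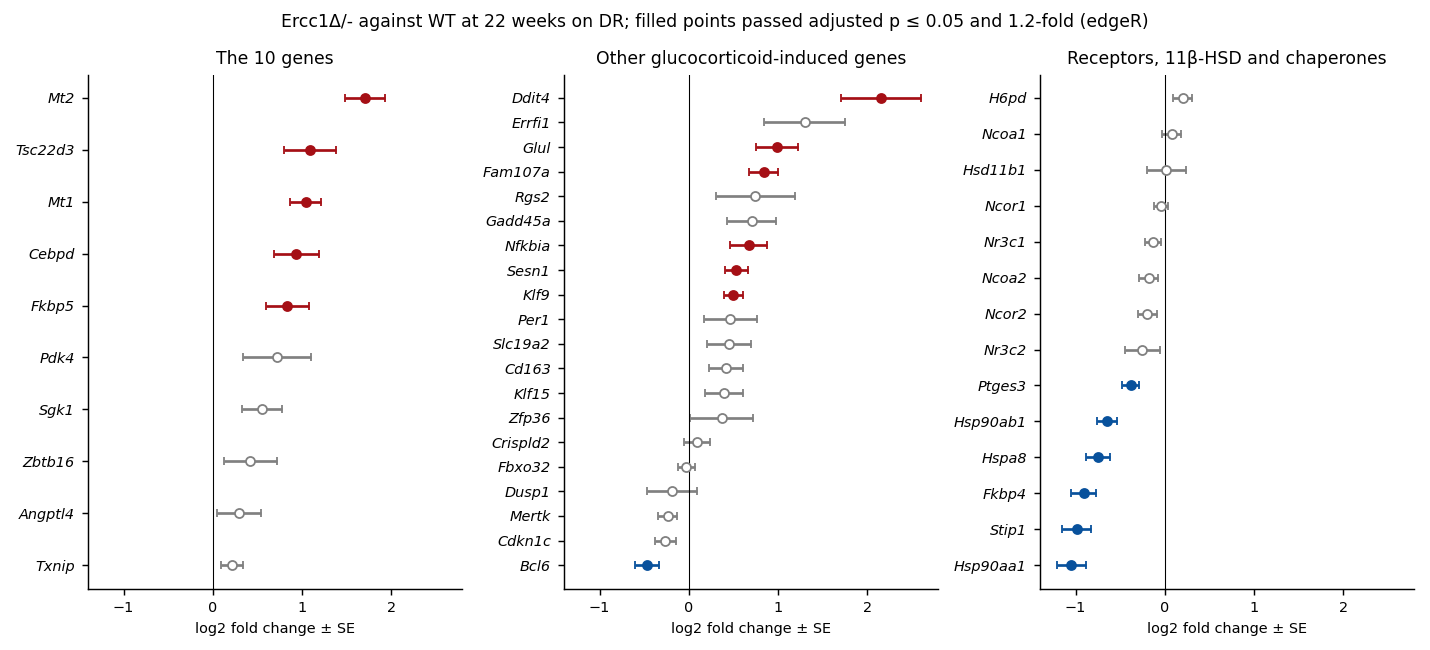
Log2 fold change ± SE of Ercc1Δ/- against WT arches at 22 weeks on DR (horizontal axis) for the 10 genes, for other glucocorticoid-induced genes and for the receptors, hormone-converting enzymes and chaperones. Red points passed the edgeR test upwards and blue points downwards: 5 of 10, 6 of 20 up with 1 down, and 6 of 14 down. Of all 12353 tested genes 737 passed upwards and 868 downwards.

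The receptor gene itself, Nr3c1, had means of 119.8 to 136 CPM in the 6 groups. At 22 weeks AL it ran from 130.3 to 146.4 CPM in WT and from 110.8 to 125.1 in Ercc1Δ/- arches. These groups did not overlap, as for 18.6% of tested genes, and the difference of -0.19 had an adjusted p of 0.167. Nr3c2, the mineralocorticoid receptor, was at 25.9 ± 8.02 CPM in WT and 12.7 ± 2.46 in Ercc1Δ/- arches of 22 weeks AL, a difference of -0.99 (SE 0.36, adjusted p 0.0853). Hsd11b1, which makes active corticosterone within cells, averaged 28.2 to 58.3 CPM over the groups, and Hsd11b2, which removes it, was too low to be tested, at 1.22 CPM or less in every arch. The receptor's chaperones were lower in Ercc1Δ/- arches: of 14 tested genes of receptors, hormone-converting enzymes, chaperones and cofactors, 5 fell on AL and 6 on DR, and none rose. Of all 12353 tested genes, 761 fell on AL and 868 on DR. Hsp90aa1, the inducible Hsp90, fell by 0.94 (SE 0.15, adjusted p 2.2e-04) on AL and by 1.05 (SE 0.16, adjusted p 3.9e-04) on DR. Stip1 (-0.93 and -0.99), Fkbp4 (-0.79 and -0.91), Hsp90ab1 (-0.66 and -0.65) and Hspa8 (-0.66 and -0.75) fell on both diets and Ptges3 (-0.38) on DR. Stip1 was also lower at 6 weeks (-0.45, adjusted p 0.0323), 1 of the 14 where 1.70% of all tested genes changed. These chaperones serve many client proteins besides the receptor. Fkbp4 and Fkbp5, co-chaperones that compete for the same place on the receptor complex, lay in opposite directions on DR.

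Of 26 other genes known to be induced by glucocorticoids, 20 were tested. On AL at 22 weeks 2 were higher in Ercc1Δ/- arches, Gadd45a, a stress gene that p53 also induces (1.54, SE 0.29, adjusted p 0.00105), and Glul, glutamine synthetase (0.64, SE 0.14, adjusted p 0.00346), and 2 were lower, the ubiquitin ligase Fbxo32 (-0.61, adjusted p 0.00175) and the phagocytic receptor Mertk (-0.51, adjusted p 0.0102). Of all tested genes 5.88% were higher on AL and 12.0% changed either way, against 5.97% and 13.0% on DR. On DR 6 of the 20 were higher and 1 lower, and the median of the 20 was 0.46 against 0.00 over all tested genes. The largest was Ddit4, an inhibitor of mTORC1 that fasting and glucocorticoids raise (2.15, SE 0.45, adjusted p 0.00627). Glul (0.98), Fam107a (0.84) and Nfkbia, the inhibitor of NF-κB (0.67, adjusted p 0.0438), were also higher, with Sesn1 (0.53) and Klf9 (0.50), a hormone-induced transcription factor (adjusted p 0.00189). Bcl6 was lower (-0.46, adjusted p 0.0234). DR in Ercc1Δ/- arches raised 2 of the 20 (1.64% of all tested genes changed), Fam107a (0.96, adjusted p 0.0129) and Fbxo32 (0.63, adjusted p 0.00173). In WT arches it raised 0 (1.28%), with 1 at an unadjusted p under 0.05. The medians were 0.34 and -0.002. At 6 weeks only Mertk differed (-0.60, adjusted p 0.00847), where 1.70% of all tested genes did. None of the 20 passed for age in WT (0.235% of all tested genes) or in Ercc1Δ/- arches (4.69%). At an unadjusted p under 0.05 were 3 in WT and 4 in Ercc1Δ/- arches. Of the relatives of Cebpd and Tsc22d3, 11 were tested. Between genotypes at 22 weeks 0 passed on AL (12.0% of all tested genes), with 4 at an unadjusted p under 0.05. On DR 1 passed (13.0% of all tested genes), Tsc22d4 (-0.36).

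Among the fasting genes, Pdk4 (chr6:5483097-5496339, minus strand) encodes a mitochondrial kinase that inhibits pyruvate dehydrogenase and so spares glucose. In Ercc1Δ/- arches of 22 weeks it stood at 76.1, 103, 215 and 248 CPM on AL and at 249, 262, 281, 316 and 478 CPM on DR. The groups did not overlap, but the AL group was split between 2 low males and 2 high females. The change of 1.17 (SE 0.43) had an adjusted p of 0.201. In WT the AL arches held 87.2, 105.0, 108 and 144 CPM and the DR arches 79.6, 132, 173, 334 and 372 CPM, a change of 0.74 (SE 0.42, adjusted p 0.514). Here the 2 high arches were the DR females, and the males overlapped the AL group. Pdk4 had the widest spread of the 10 genes within groups, an SD of 0.60 on the log2 scale, above 92.4% of tested genes.

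Angptl4 (chr17:33992724-34000804, minus strand), a secreted inhibitor of lipoprotein lipase that fasting raises, was the least abundant of the 10 genes. In Ercc1Δ/- arches of 22 weeks it stood at 9.79, 17.5, 31.8 and 38.2 CPM on AL and at 31.9, 33.7, 34.2, 34.3 and 62.8 CPM on DR. The 2 low AL arches were the males, the 2 females on AL lay within the WT range of 24.3 to 49.2 CPM at 22 weeks, and 1 DR male stood far above its group. The change with DR was 0.72 (SE 0.29, adjusted p 0.245), against -0.17 (SE 0.24, adjusted p 0.839) in WT. Between genotypes the difference was -0.40 (SE 0.29, adjusted p 0.415) on AL and 0.30 (SE 0.25, adjusted p 0.506) on DR.

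Txnip (chr3:96465267-96469201, plus strand) encodes an arrestin that binds thioredoxin and holds back glucose uptake, and it is induced by glucose itself. It was the most abundant of the 10 genes, at group means of 561 to 724 CPM, and the least variable, with an SD within groups of 0.28 on the log2 scale. In Ercc1Δ/- arches of 22 weeks the values were 421, 550.2, 597 and 677 CPM on AL and 592, 694, 725, 740.0 and 841 CPM on DR. The groups overlapped, and the change of 0.38 (SE 0.14) had an adjusted p of 0.18. In WT the change was -0.24 (SE 0.13, adjusted p 0.496), and the difference between the 2 changes was 0.61 (SE 0.19, adjusted p 0.318). Txnip lies within the antisense gene Gm15441, to which 51 counts were assigned over all 29 libraries against 70937 for Txnip.

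Of 34 other genes of fasting, fatty acid use and FOXO signalling, 31 were tested. In Ercc1Δ/- arches 4 were higher at 22 weeks AL and 8 on DR, and none was lower. Of all tested genes 5.88% were higher on AL and 5.97% on DR. Lpl, the lipase that Angptl4 inhibits, was higher by 1.97 (SE 0.53, adjusted p 0.0262) on AL and 1.41 (SE 0.41, adjusted p 0.0365) on DR. Plin2, a coat protein of lipid droplets (1.67 and 1.05), Ppargc1a, a coactivator of mitochondrial genes (1.57 and 1.19), and Ucp2, a mitochondrial carrier (1.36 and 1.18), were higher on both diets. Fabp3 (1.33), Foxo3 (0.48) and Sesn3 (0.35) were among those higher on DR. Macrophages also express Lpl, Plin2 and Ucp2, and the rise of the macrophage markers given above went with these values. Of 12 adipocyte markers, 9 were positive and 3 negative between genotypes on AL (median 0.73), and 8 and 4 on DR (median 0.13). On AL 1 of them passed, as lower (761 of all 12353 tested genes), and on DR 0 passed (13.0% of all tested genes). The part of either cell type in these values was not tested. With DR in WT arches 1 of the 31 rose (1.28% of all tested genes changed). This was Angptl8, a partner of Angptl4 that feeding induces in fat and liver (2.71, SE 0.43, adjusted p 0.00204). The adipocyte marker Lep, leptin, fell by 3.09 on the log2 scale (SE 0.39, adjusted p 7.63e-05). Of the 12 adipocyte markers it was the 1 that was negative there, and 11 were positive (median 0.40). Lep was low, with a mean of 4.29 CPM and 5 libraries at 0. In Ercc1Δ/- arches its change with DR was -3.50 (SE 1.33, adjusted p 0.185). With age Ucp2 rose in Ercc1Δ/- arches (0.78, adjusted p 0.00231), and at 6 weeks Irs2, the insulin receptor substrate, was lower in them (-0.95, adjusted p 0.00534).

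For the genes other than Sgk1 and the metallothioneins, no difference passed with both sexes at 6 weeks or in the step from 6 to 22 weeks. At 6 weeks Tsc22d3 averaged 164 ± 25.2 CPM in WT and 120.5 ± 35.8 in Ercc1Δ/- arches (-0.43, SE 0.27, adjusted p 0.581). Zbtb16 averaged 332 ± 29.1 and 248 ± 83.1 CPM (-0.42, SE 0.31, adjusted p 0.652), and 2 of the Ercc1Δ/- males, at 158 and 159 CPM, were below all other arches of that age. Fkbp5, Cebpd, Pdk4, Angptl4 and Txnip differed between genotypes by -0.15 to 0.12. With age on AL, Zbtb16 changed by -0.13 (SE 0.33, adjusted p 0.967) in WT and -0.54 (SE 0.34, adjusted p 0.456) in Ercc1Δ/- arches, and Angptl4 by -0.18 (SE 0.25, adjusted p 0.929) and -0.58 (SE 0.28, adjusted p 0.291). Pdk4 went from 169 ± 28.1 to 111 ± 24.0 CPM in WT (-0.56, SE 0.36, adjusted p 0.74). In Ercc1Δ/- arches it changed by -0.19 (SE 0.36, adjusted p 0.86). Tsc22d3 changed by -0.48 (SE 0.29, adjusted p 0.71) in WT and 0.24 (SE 0.29, adjusted p 0.749) in Ercc1Δ/- arches. Sgk1 changed by -0.69 (SE 0.20, adjusted p 0.214) in WT, from 132 ± 20.1 to 82.6 ± 20.6 CPM, and by 0.34 (SE 0.20, adjusted p 0.418) in Ercc1Δ/- arches.

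By sign, all 10 genes had a positive log2 difference between genotypes on DR, with a median of 0.78 against 0.00 for all tested genes. On AL at 22 weeks 7 of 10 were positive with a median of 0.34 (all genes 0.03). With DR 9 of 10 were positive in Ercc1Δ/- arches (median 0.54, all genes 0.00) and 5 of 10 in WT arches (median -0.003). With age in WT 9 of 10 were negative (median -0.37). The genotype comparison on DR and the diet comparison in Ercc1Δ/- arches use the same 5 Ercc1Δ/- DR libraries, so their directions are not separate evidence.

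Within the Ercc1Δ/- group on DR the sexes lay apart. Both females were below all 3 males for 8 of the 10 genes, all but Angptl4 and Mt2, which was so for 11.4% of tested genes in that group, and above them for 0 (10.2% of tested genes). Fkbp5 averaged 401 CPM in the males and 221 in the females, Sgk1 137 and 71.1, and Tsc22d3 269.9 and 153. The 2 females were the deepest and the shallowest library of the group. In the WT group on DR the females were below the males for 0 of the 10 genes (12.8% of tested genes) and above them for 4, Tsc22d3, Pdk4, Angptl4 and Mt2 (16.5% of tested genes). These are descriptions of 3 and 2 mice, and a difference of the genotype or diet effect between the sexes was not tested.

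With the males alone, 3 mice against 3 on DR and 2 Ercc1Δ/- against 3 WT mice on AL, 6 of the 10 genes were higher in Ercc1Δ/- arches on DR, where 6.02% of tested genes were higher in the same fit. These were Mt2 (2.21, adjusted p 3.14e-08), Mt1 (1.42, adjusted p 3.15e-06), Fkbp5 (1.23, adjusted p 0.0162), Sgk1 (0.95, adjusted p 0.0018), Pdk4 (1.48, adjusted p 0.0214) and Angptl4 (0.76, adjusted p 0.0219). Tsc22d3 (1.46, adjusted p 0.052) and Cebpd (1.17, adjusted p 0.0649) had larger differences than with both sexes and did not pass. The Ercc1Δ/- DR females left out lay below all males of their group for 8 of the 10 genes. The WT DR females lay above their males for 4. Leaving the females out thus widens the difference for such genes, and these values are no separate evidence. On AL, Mt1 and Mt2 were higher in the 2 male Ercc1Δ/- arches than in the WT males (1.08 and 1.74, adjusted p 0.0261 and 0.0249), 2 of the 10 genes where 1.50% of tested genes were higher. In these 2 arches Angptl4 was the 1 gene of the 10 that was lower, against WT (log2 difference -1.36, adjusted p 0.00851, 1.42% of tested genes lower) and against 6 weeks (-1.80, adjusted p 0.00132, 0.648% lower). With DR it was higher by 1.68 (adjusted p 0.014), 1 of 2 genes with Mt2 where 0.283% of tested genes rose. The adipocyte markers of the 4 Ercc1Δ/- arches of 22 weeks on AL summed to 1562 and 2416 CPM in the males and 3179 and 4210.0 CPM in the females, and their part in the Angptl4 values was not tested.

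**Figure D4:**
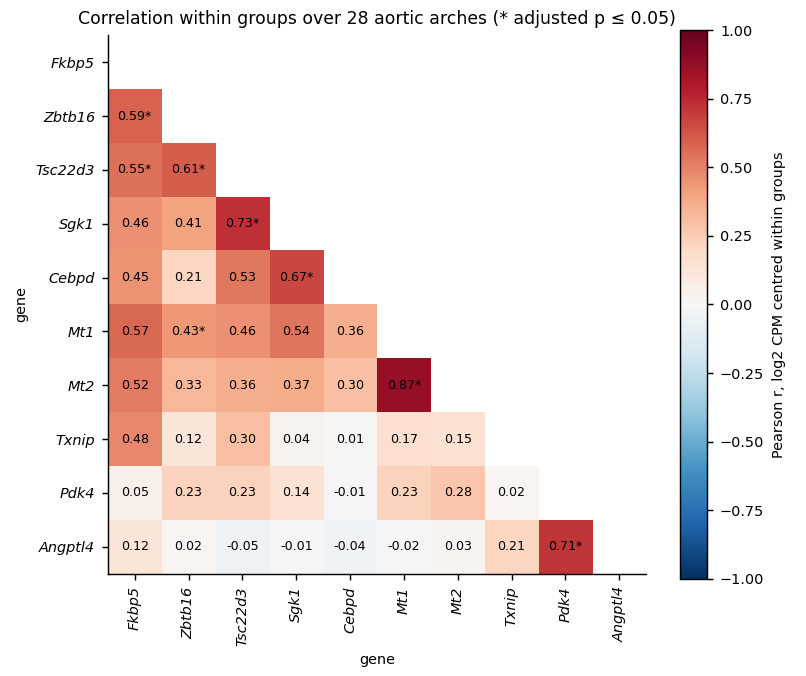
Pearson correlation of each pair of the 10 genes over 28 aortic arches, on log2 CPM centred within the 6 groups, genes on both axes and r by colour and number. An asterisk marks an adjusted p of at most 0.05 in 100000 permutations within groups. Asterisks stand on 8 of the 45 pairs, among them Mt1 with Mt2, Tsc22d3 with Sgk1, and Pdk4 with Angptl4, and the other 37 carry none.

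Mice of the same group differed in these genes, and some of the genes varied together from mouse to mouse. Of the 45 pairs, 40 had a positive correlation within groups, with a median r of 0.30 against -0.001 over all pairs of the 12353 tested genes, of which 49.8% were positive. Of the 45, 8 passed by Pearson's r after adjustment over the 45 pairs, 9 by Spearman's rho and 7 by both. The values are not adjusted for sex or depth, which the genes of a library share. The closest pair was Mt1 and Mt2 (r 0.873, rho 0.876, both adjusted permutation p-values 4.5e-04, the smallest these permutations can give, and r 0.808 without the 2 arches farthest from the median). Tsc22d3 and Sgk1 followed (r 0.728, rho 0.688, adjusted permutation p 0.0075 for r, and r 0.71 without the farthest 2). Sgk1 and Cebpd (r 0.669), Tsc22d3 and Zbtb16 (r 0.608) and Fkbp5 and Zbtb16 (r 0.589) also passed by both measures. Fkbp5 and Tsc22d3 passed by r (0.551, adjusted permutation p 0.03) and not by rho (0.512, adjusted permutation p 0.056).

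Pdk4 and Angptl4, both PPAR targets, formed a pair of their own (r 0.712, rho 0.669, adjusted permutation p 0.008 for r). Neither passed with Fkbp5, Tsc22d3, Sgk1, Zbtb16 or Cebpd (r -0.047 to 0.228). Pdk4 and Angptl4 both passed by r against the RNA of adipocyte markers, and Pdk4 also by rho. Against the summed adipocyte markers, Pdk4 had r 0.847 and rho 0.744 (adjusted permutation p 0.0015 and 0.033 over 50 relations, and r 0.818 without the farthest 2 arches), and Angptl4 had r 0.677 and rho 0.622 (adjusted permutation p 0.042 and 0.13, and r 0.625). None of the other 8 genes passed against the adipocyte sum, and none of the 10 passed against sums of macrophage, cardiac and skeletal muscle, or clock genes or against the library total. All these values were centred within groups and so hold no difference between groups. Sums of smooth muscle and endothelial markers were not tested in this way. The clock list joins genes that moved in opposite directions, so its sum cannot follow clock phase. With age in Ercc1Δ/- arches Bmal1 changed by 2.36 (adjusted p 0.0442) and Per3 by -1.05 (adjusted p 1.06e-04). Of 17 clock genes, 4 passed between genotypes at 22 weeks AL, 1 higher and 3 lower (12.0% of all tested genes). With DR 3 passed in WT, all lower (1.28%), and 0 in Ercc1Δ/- arches (1.64%). The part of clock phase in the 10 genes was not tested. At 22 weeks the adipocyte sum was 1880 to 2550 CPM in WT arches on AL, 1590 to 4810 in WT on DR, 1560 to 4210 in Ercc1Δ/- on AL and 2500 to 4290 in Ercc1Δ/- on DR, and at 6 weeks it was 2370 to 3830 in WT and 1710 to 4590 in Ercc1Δ/- arches. The sum weighs abundant markers most, such as Plin4 (mean 987 CPM, lowest 648). With DR in Ercc1Δ/- arches Plin4 was the 1 of the 12 markers that passed (0.65, adjusted p 0.00631). Of all 12353 tested genes 80 were higher there. The part of the adipocyte sum in the diet changes of Pdk4 and Angptl4 was not tested.

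**Figure D5:**
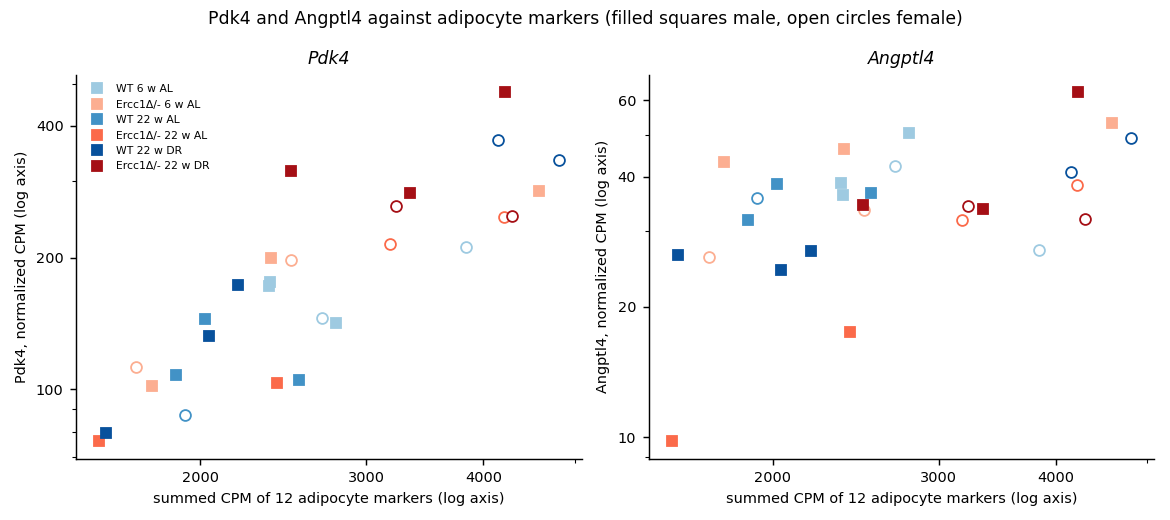
Normalized CPM of Pdk4 (left) and Angptl4 (right) against the summed CPM of 12 adipocyte markers in 28 aortic arches, both axes logarithmic, coloured by group, with squares for males and circles for females. Pdk4 rose with the adipocyte sum across all groups (r 0.847 within groups), and Angptl4 did so less closely (r 0.677).

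Measured per kilobase of exon, the mean levels over the 28 arches ranged from 213 CPM per kb for Txnip, 129.6 for Mt1 and 97.9 for Mt2 through 51.8 for Pdk4, 32.4 for Zbtb16, 23.7 for Tsc22d3, 22.7 for Cebpd and 17.8 for Fkbp5 to 16.4 for Sgk1 and 7.96 for Angptl4. The authors counted over the whole gene body, so any reads in introns are included in these levels, and their share was not measured here. Within groups the SD on the log2 scale was 0.28 to 0.60 for the 10 genes and larger than that of 56.1% to 92.4% of tested genes, whose median was 0.26.

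Genes outside the list that followed its members most closely were found by Spearman's rho over the 28 arches on log2 CPM centred within groups, as a description. Fkbp5 was followed most closely by Cyb561 (rho 0.895), Sgk1 by Errfi1 (0.895), Tsc22d3 by Arrdc3 (0.797) and Errfi1 (0.791), and Cebpd by Rhob (0.78) and Lpin3 (0.754). Pdk4 went with Lpin1 (0.865) and Gys2 (0.848), Angptl4 with 2310061I04Rik (0.824), and Zbtb16 with Has3 (0.748). Mt1 and Mt2 were closest to each other, followed by Mthfd2 for Mt1 (0.73) and Galnt15 for Mt2 (0.737), and Txnip was closest to Ggnbp2 (0.724).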

How the data were processed

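Libraries of aortic arch RNA (NEBNext Ultra II Directional, with UMIs) were made from 29 mice. According to the submitters' processing notes the authors used bcl2fastq 2.20, UMI-tools 1.1.2, STAR 2.7.10a, HTSeq 2.0.2 and DESeq2 1.34.0 with mm39. The authors deposited raw counts, whole numbers for each gene in each library, deduplicated by UMI and counted over the gene body. The lines of the table that name no gene were left out (no feature 7.27% to 10.1%, ambiguous 1.4% to 1.82% and not unique 3.66% to 7.06% of reads). Sample 003 (WT, 22 weeks AL), which the study left out, held 400410 counts and was kept out here except as an alternative.

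Genes were tested if over 10 libraries of the 28 had over 10 counts, with edgeR 4.0.16 (R 4.3.3, quasi-likelihood, robust, TMM), with group and sex in the model, in a fit over the 18 AL libraries (genotype, age) and one over the 18 libraries of 22 weeks (diet, genotype on DR). Adjusted p-values are Benjamini-Hochberg values from edgeR over all 12353 genes unless DESeq2 is named. Interactions needed an adjusted p of at most 0.05 and no fold limit. TMM factors ran from 0.936 to 1.07. Correlations used log2 CPM (prior count 2) centred within groups, with 100000 permutations within groups in Python 3.11.15. Totals set the counting precision of low values.

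The members and gene lists were chosen with earlier results of these data known, and support nothing by themselves. All 10 members are named, with the genes that check labels and, from each other list, up to 4 called genes per direction and comparison by smallest p, any further called genes of a list being named after their values were seen, and the closest genes by rho. On simulated counts for the genotype comparison at 22 weeks AL (12353 genes, 200 changed 3-fold), 181 were called in the right direction with 12 unchanged genes called. The relations with marker sums were added after seeing the data. Alternatives were DESeq2 1.42.0, RLE factors, no filter, sample 003 added, no sex term, the earlier dispersion method, fits over other sets of groups, a test against 1.2-fold, males only, thinning, and leaving out each library in turn. Protein tables were not used here. The values of 1 gene of the fasting list are not reported here, and the list's counts include it.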

Additional observations from a re-analysis of the deposited data

Results flagged for a closer look

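In 60 gene and group combinations, the most extreme library was compared with the others by the share of the group's range that separates it from its nearest neighbour. For 2 of them this share passed the 95% limit for 5 libraries of 0.71, and chance alone passes it in about 1 of 20 groups. Angptl4 in the Ercc1Δ/- male 029 on DR was at 62.75 CPM, with the next library of its group at 34.33 CPM and a share of 0.921. Txnip in the WT male 019 of 6 weeks was at 946.2 CPM, with the next at 701.8 CPM and a share of 0.736.

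The change with age on AL differed between genotypes for both metallothionein genes, by 1.74 on the log2 scale for Mt2 (SE 0.34, adjusted p 0.0179 in edgeR's interaction test) and by 1.32 for Mt1 (SE 0.25, adjusted p 0.0127). In all 4 Ercc1Δ/- arches of 22 weeks both genes were above all 5 Ercc1Δ/- arches of 6 weeks, and the WT means lay lower at 22 than at 6 weeks.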

How the results depend on the processing

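Counts of the 10 genes that passed were the same or within 1.5-fold under most settings, and the cause of the exceptions was not tested. For genotype on DR (5 genes), 2 passed with no filter on low counts and 2 (Mt1 and Mt2) in a test against the 1.2-fold change itself, and leaving out single libraries gave 2 to 6. For age in Ercc1Δ/- arches (2 genes), 1 passed against the 1.2-fold change, 1 with males only (Angptl4, lower), 1 with all libraries thinned, and 1 to 2 with single libraries left out. For genotype by age (2 genes), 1 passed with no filter, 0 with males only, and 1 to 3 with single libraries left out. For diet in Ercc1Δ/- arches (0 genes), DESeq2 gave 2, a fit over all 6 groups 1 (Zbtb16), males only 2 (Angptl4 and Mt2), and single libraries left out 0 to 1. For genotype by diet (0 genes), males only gave 1 (Angptl4) and single libraries left out 0 to 0. For genotype at 6 weeks (0 genes), DESeq2 gave 1 (Sgk1, lower). The genotype difference of Angptl4 on DR turned to -0.0152 without the Ercc1Δ/- arch 029 and ran up to 0.46 over the other single libraries left out. Of 90 pairs of gene and comparison, 67 were never called, and among 1456 alternative values of these 66 had the other sign. No paired analysis was possible because each library has a replicate number of its own. Depth limits Angptl4 most, with raw counts down to 13 in a library.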

Other observations

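The library 003, from a WT female of 22 weeks on AL that was left out of every comparison, held 400410 counts. Its levels were within or near the range of the other WT arches of its group for Fkbp5 (168 CPM), Tsc22d3 (138), Sgk1 (101), Mt2 (45.3) and Cebpd (61.2). Pdk4 at 487 CPM, from 183 counts, was above every other arch, and Angptl4 at 74.5 CPM, from 28 counts, was too. Zbtb16 stood at 463 CPM, Mt1 at 128 CPM and Txnip at 839 CPM.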
